A study of Mus musculus with 24 samples.

Results

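The genes described here are protein-folding chaperones of the cytosol and the mitochondrial matrix, with their cochaperones, in mouse Th1 cells restimulated through the T cell receptor. They were taken from a list of 42 gene symbols covering heat shock proteins, the TRiC and prefoldin complexes and cochaperones, and 37 of the 42 were among the 9420 genes of the expression table. Hspa14, Dnaja1, Dnajb6, Ptges3 and Cct6a were not analysed here. By role, the 37 genes fall into 6 mitochondrial chaperones, 3 cytosolic Hsp70 and Hsp110 proteins, 5 J-domain proteins, 2 Hsp90 proteins, 5 Hsp90 cochaperones, 3 Hsp70 cofactors, 7 TRiC subunits, 5 prefoldin subunits and the heat shock factor Hsf1. Dnajb11, placed with the J-domain proteins, is a resident of the endoplasmic reticulum rather than of the cytosol.

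Peripheral CD4+ T cells came from DO11.10 mice, a strain with a transgenic T cell receptor for an ovalbumin peptide, and were studied as Th1 effectors. Restimulation was with soluble anti-CD3 at 1 µg/ml and anti-CD28 at 2.5 µg/ml over plate-bound goat antibody to hamster immunoglobulin, and cells at 0 h served as the resting reference. Newly transcribed RNA was labelled with 4-thiouridine (4sU) at 200 µM for 1 h and sequenced at 0, 1 and 4 h in 2 libraries each and at 2 and 3 h in 1 library each. Total RNA had 2 libraries at 0 and 4 h and 1 library at 1 and 2 h, and ribosome-protected fragments (ribosome profiling, RP) had 2 libraries at 0, 1 and 4 h and 1 library at 0.5 and 2 h. A further pair of 4sU libraries, labelled at 500 µM for 0.5 h, covered 0 and 0.5 h with 1 library each. The labels give neither the age of the mice nor the origin of the replicates. Whether the replicates are separate mice or cultures is not known, so all p-values measure the spread between these libraries only.

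Chaperones bind polypeptides that are not yet folded and keep them from aggregating until they reach their native shape. Hsp70 proteins bind short exposed stretches in cycles of ATP hydrolysis that J-domain proteins start and nucleotide exchange factors end, Hsp90 acts later on kinases, receptors and other clients, and TRiC is a chamber of paired rings that folds actin and tubulin, some of which prefoldin hands over. In the mitochondrial matrix, the Hsp70 Hspa9 receives imported proteins, and the Hsp60 chamber Hspd1 with its lid Hspe1 folds them. T cells enlarge and raise protein synthesis within hours of activation, which makes folding capacity a question of interest in this setting.

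Values are FPKM, fragments per kilobase of gene corrected for how many were mapped in that library, so each is a share of its library and a rise means a larger share. In bulk libraries, fewer cells of a type and less RNA per cell cannot be told apart. All 8 markers of CD4 T and Th1 cells on the marker list were in the table. Their sums in replicates 1 and 2 were 717.1 and 649.6 FPKM in 4sU at 0 h, and 8002.8 and 2814 at 4 h. At 4 h the sums were 7908.3 and 2262.2 in total RNA and 22523.8 and 14837.5 in RP. Ifng alone was at 101 and 45.4 FPKM in 4sU at 0 h and at 7580 and 2368 at 4 h. Cd3e, Cd3d, Cd4, Cxcr3 and Stat4 were lower at 4 h than at 0 h in both 4sU replicates. Cd3d, for example, went from 192 and 179 to 108 and 89.1 FPKM. Tbx21 and Il12rb2 moved in opposite directions in replicates 1 and 2. The 5 CD8 T cell markers were all in the table too, and their sum was higher in replicate 1 (Gzma, Cd8a and Cd8b1 among them), while Eomes was lower in replicate 1 at 4 h. At 0 h they summed to 132.7 and 17.1 FPKM in 4sU, 302.3 and 20.1 in total RNA and 1046.6 and 96.7 in RP for replicates 1 and 2, against 173.6 and 60.5, 360.6 and 43, and 1117.5 and 149.7 at 4 h. The 4 B cell markers in the table (of 5) summed to 17.3 and 4.2 FPKM in 4sU at 0 h and to 1.8 and 2 at 4 h, while none of the 5 macrophage and monocyte markers was in the table. The table also held 2 of the 5 NK cell markers and 4 of the 5 genes of antigen presentation, and the latter summed to 32.5 and 12 FPKM in 4sU at 0 h and to 12.2 and 12.4 at 4 h. The NK markers were lower at 4 h in both replicates of each kind, with sums of 42.8 and 46.5 FPKM at 0 h and 17.3 and 15.5 at 4 h in 4sU, 38.6 and 35.2 and then 24.1 and 13 in total RNA, and 123.6 and 151.9 and then 58.3 and 64.9 in RP. The part of these markers in the results was not tested. Depth could be read from the smallest steps of the values in 11 of the 24 libraries, at about 8950000 to 26600000 reads for RP and 4870000 for total RNA at 0 h replicate 2.

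The chaperone genes took a growing share of the RNA being made and of the fragments on ribosomes. Their summed FPKM in 4sU was 0.487% and 0.471% of the table at 0 h, 0.615% and 0.606% at 1 h, 0.823% at 2 h, 1.04% at 3 h and 1.19% and 1.12% at 4 h. In RP the share was 0.400% and 0.502% at 0 h, 0.598% at 0.5 h, 0.592% and 0.725% at 1 h, 0.648% at 2 h and 1.09% and 0.950% at 4 h. Every 4 h library of these kinds lay above every 0 h library. In total RNA the share was 0.863% and 1.12% at 0 h, 1.20% at 1 h, 1.05% at 2 h and 1.44% and 1.4% at 4 h, where the groups at 0 and 4 h also did not overlap. Hsp90ab1 and Hspa8 had the highest values in 4sU at 4 h replicate 1, at 443 and 515 FPKM.

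**Figure D1:**
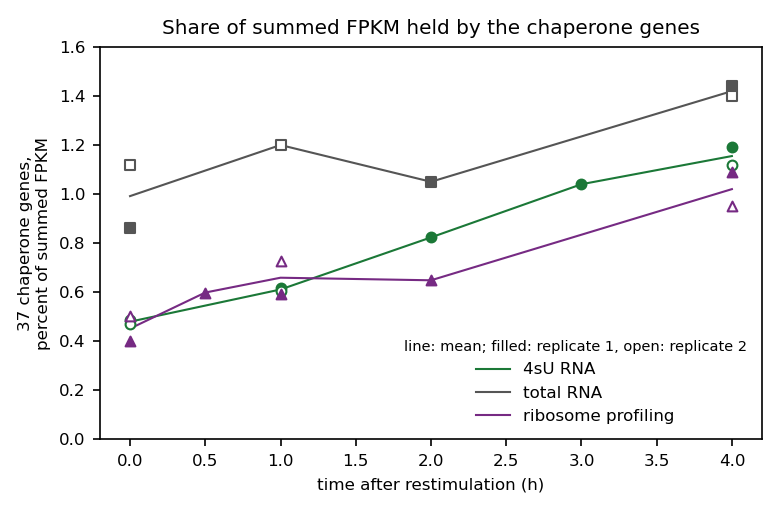
Summed FPKM of the 37 chaperone genes as a percentage of the summed FPKM of the table (y axis) against time after restimulation in hours (x axis), for 4sU RNA, total RNA and ribosome profiling, with filled points for replicate 1, open points for replicate 2 and lines through the means. The share in 4sU RNA goes from 0.487% and 0.471% at 0 h to 1.19% and 1.12% at 4 h, and total RNA starts higher, at 0.863% and 1.12%.

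In new RNA the increase was seen in most of the genes. At 4 h, 26 of the 37 passed the test as higher than at 0 h and none as lower (limma, adjusted p below 0.05), against a background of 14.4% of 9278 genes called higher and 18.9% called lower. Their median log2 change was 1.10, compared with -0.16 over all genes tested, and the range went from -0.44 (Dnajb1) to 2.55 (Hspd1). Both 4 h libraries were above both 0 h libraries for 33 genes, below them for 2 (Dnajb1 and Dnajc7) and overlapped for 2 (Grpel1 and Pfdn6). Over all genes the 4 h libraries were above in 28.7% and below in 42.3%. Libraries with the same replicate number deviated together, and with the replicate number as a block 29 genes were called higher (background 23.3%) and 2 lower, Dnajb1 and Dnajc7 (background 35.4%). Leaving out 1 library at a time left 15 calls without 0 h replicate 1, 16 without 4 h replicate 1, 11 without 0 h replicate 2 and 28 without 4 h replicate 2. Of the 26 genes, 10 were called in all 4 of these fits: Hspd1, Hspe1, Hspa9, Dnajc2, Hsp90aa1, Hsp90ab1, St13, Cct3, Cct8 and Hsf1.

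The earlier times gave fewer calls. At 1 h no chaperone gene passed the test in 4sU in limma, where 8 had an unadjusted p below 0.05 (13.3% of all genes) and the background of calls was 0.183%. With the replicate block 5 were called higher at 1 h (background 5.21%), namely Hspe1, Hspa8, Hsp90aa1, Hsp90ab1 and Tcp1. At 2 h, a single library, 9 were called higher (background 3.87%; 18 with the block, background 13.3%), and at 3 h, also a single library, 21 (background 9.41%; 26 with the block, background 17.8%). Without 0 h replicate 1 the calls were 0 at 2 h and 1 at 3 h, and without 0 h replicate 2 they were 0 at both. The median log2 change of the genes was 0.23 at 1 h, 0.79 at 2 h and 1.05 at 3 h. In the replicate 1 series, which alone covers all 5 times, 32 of the 37 genes had their highest 4sU value at 4 h, 3 at 2 h (Chordc1, Dnaja2 and Hspa4) and 2 at 1 h (Dnajb1 and Dnajc7).

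Total RNA moved less by 4 h. Of 36 genes tested, 6 were called higher and 0 lower (background 6.47% higher and 7.02% lower): Hspd1, Dnaja3, Hsph1, Pfdn2, Pfdn4 and Hsf1. The median log2 change was 0.58, against -0.10 over all genes. With the replicate block 20 were called higher (background 16.6%). The count was 1 without 0 h replicate 1, 0 without 4 h replicate 1, 2 without 0 h replicate 2 and 4 without 4 h replicate 2, so no gene was called in all 4 of these fits. Both 4 h libraries exceeded both 0 h libraries for 25 of the 37 genes and lay below them for Dnajc7 and Pfdn6, while over all genes 25.3% were above and 36.7% below. At 1 and 2 h, with 1 library each, limma called 0 genes, with 5 and 1 at an unadjusted p below 0.05, as had 13.2% and 11.7% of all genes (background called higher 0% and 0.958%). With the block, 4 were called lower at 1 h, Dnaja3, Dnajc7, Cct4 and Cct8 (background 9.02%), and Hsph1 was called higher at 2 h (background 5.33%). That 1 h library listed 55 genes of the table at 0, against 0 to 40 in the other total RNA libraries.

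Ribosome footprints followed with 21 genes called higher at 4 h and 0 lower (background 12.1% and 12.9%). The median log2 change was 0.98 against -0.10 over all genes, from -0.46 (Pfdn6) to 2.34 (Hsph1). With the block 27 were called higher (background 21.3%). The number of calls fell to 3 without 0 h replicate 1, 1 without 4 h replicate 1, 10 without 0 h replicate 2 and 9 without 4 h replicate 2, and Hspd1 was the gene called in each of these fits. Both 4 h libraries were above both 0 h libraries for 31 genes and below them for Dnajb1, against 29% and 36.8% of all genes. At 0.5 h and 1 h limma called 0 chaperone genes (background 0% and 0.140%), also with the block (background 0.0322% and 1.42% higher), and 1 and 10 had an unadjusted p below 0.05, as had 7.98% and 10.6% of all genes. At 2 h, a single library, Pfdn5 was called (background 2.96%). With the block 5 were called at 2 h, Hspe1, Hsph1, Dnaja2, Cct2 and Pfdn5 (background 9.53%), and without either 0 h replicate there was no call.

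**Figure D2:**
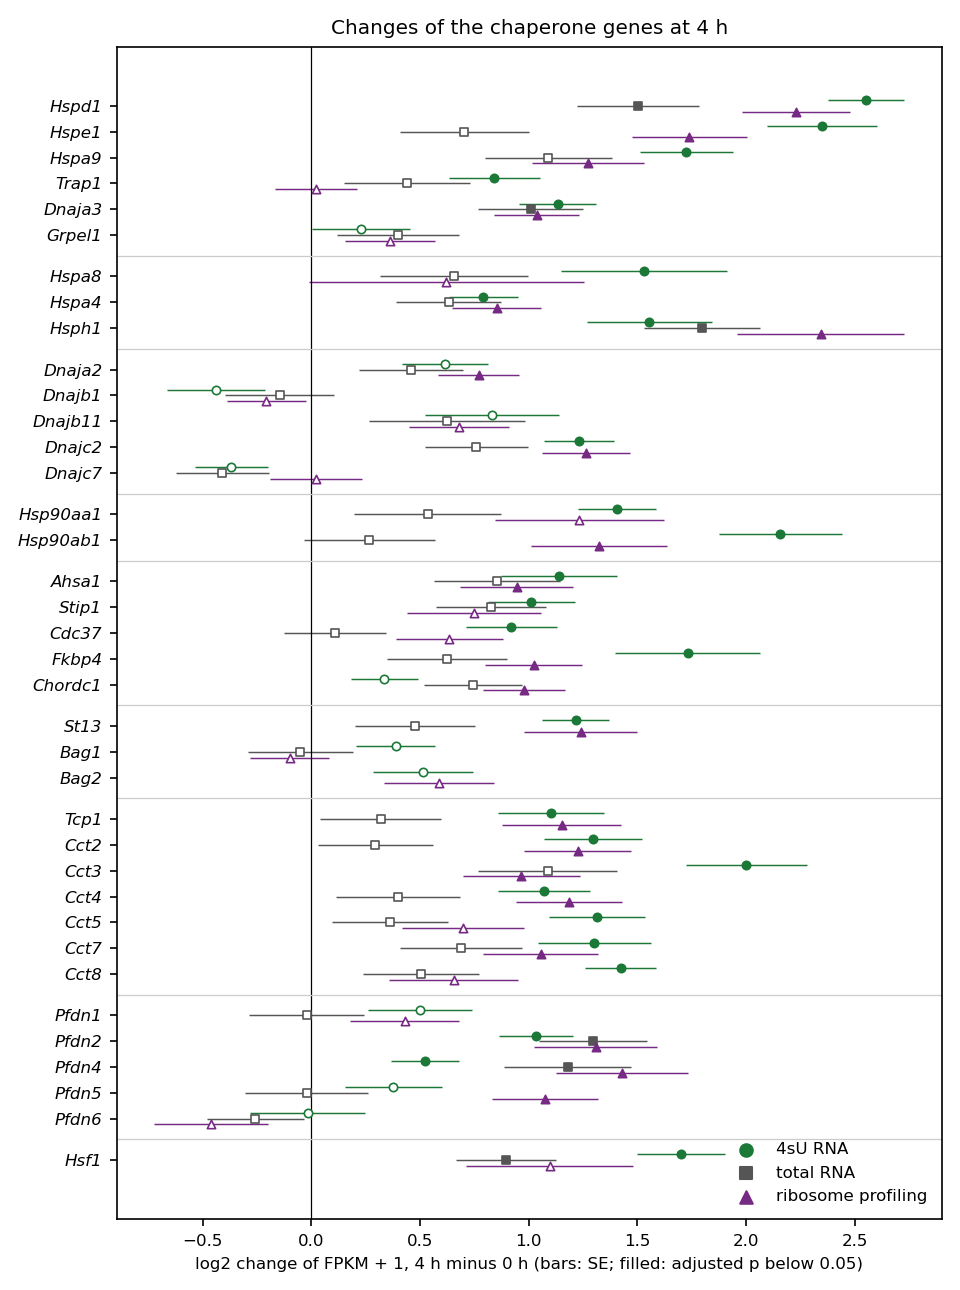
Log2 change of FPKM + 1 from 0 h to 4 h (x axis) for each of the 37 chaperone genes (y axis, grouped by role), in 4sU RNA (circles), total RNA (squares) and ribosome profiling (triangles), with bars for the standard error and filled symbols for an adjusted p below 0.05. Hspd1 has the largest 4sU change, 2.55, and Dnajb1 and Pfdn6 lie below 0 in each of the 3 kinds of library.

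The genes called higher at 4 h in each kind of library numbered 5: Hspd1, Hsph1, Dnaja3, Pfdn2 and Pfdn4. A further 8 were called in none, namely Grpel1, Dnajb1, Dnajb11, Dnajc7, Bag1, Bag2, Pfdn1 and Pfdn6. With the block 18 were called higher in each kind and 4 in none, Grpel1, Bag2, Pfdn1 and Pfdn6. Of the other 4 genes named, Dnajb11 was then called higher in all 3 kinds (adjusted p = 0.00145 in 4sU, 0.0143 in total RNA and 0.016 in RP), Bag1 higher in 4sU, and Dnajb1 and Dnajc7 lower in 4sU. Bag2 was not tested in total RNA, where its mean was under the 1 FPKM required. The share of all genes called in all 3 kinds, or in none, was not counted, so these overlaps have no background beside them.

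The mitochondrial chaperones held the largest new-RNA change of the list. Of the 6 genes, 5 rose in 4sU at 4 h, 2 in total RNA and 4 in RP, with median log2 changes of 1.43, 0.86 and 1.16. With the block 4 were called in total RNA, Hspe1 and Hspa9 in addition. Hspd1 (ENSMUSG00000025980), the Hsp60 subunit of the matrix folding chamber, and Hspe1 (ENSMUSG00000073676), the Hsp10 that closes it, are neighbours on chromosome 1 transcribed in opposite directions. In RefSeq an Hspd1 start lies 215 bases from that of Hspe1. The stretch between them contains a run of alternating TTC and GAA units, the heat shock element bound by heat shock factors. A further Hspd1 start, with its window at chr1:55088194-55088493, lies past the Hspe1 start. From that start the element falls inside the Hspd1 gene. The element is shown because Hspd1 and Hspe1 had the largest 4sU changes of the list at 4 h, and it was picked after these were seen. Its units and the bases between them are in capitals (GRCm38.p6, plus strand, chr1:55088053-55088082).

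Hspd1 and Hspe1, between the starts: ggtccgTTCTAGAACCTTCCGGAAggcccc

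Hspd1 in 4sU was at 22.6 and 22.3 FPKM at 0 h, 29.4 and 26.2 at 1 h, 68.1 at 2 h, 119 at 3 h and 147 and 127 at 4 h. In total RNA it went from 46.5 and 62.7 at 0 h through 80.6 at 1 h and 77.0 at 2 h to 179 and 135 at 4 h. In RP it was at 72.0 and 82.5 at 0 h, 111 at 0.5 h, 115 and 150 at 1 h, 122 at 2 h and 431 and 310.1 at 4 h. The 4 h libraries were above all earlier libraries of their kind in all 3 series, and most of the 4sU increase fell between 1 and 3 h. The log2 changes at 4 h were 2.55 ± 0.17 (SE) in 4sU, 1.5 ± 0.28 in total RNA and 2.23 ± 0.25 in RP, with adjusted p of 0.00181, 0.0202 and 0.00536 (limma, 2 libraries against 2). Without 4 h replicate 1 the total RNA change had an adjusted p of 0.139, and without 0 h replicate 1 it was 0.0857.

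Hspe1 started lower, and as for Hspd1 its 1 h libraries lay above both 0 h libraries of the same kind. In 4sU it was at 7.38 and 6.91 FPKM at 0 h, 15.9 and 12.1 at 1 h, 25.4 at 2 h, 40.6 at 3 h and 50.5 and 32.5 at 4 h, a log2 change of 2.35 ± 0.25 (adjusted p = 0.00306). In RP it was at 15.4 and 24.9 at 0 h and 73.6 and 62.6 at 4 h, a change of 1.74 ± 0.26 (adjusted p = 0.00946), which without 4 h replicate 1 had an adjusted p of 0.0669. Total RNA was at 21.6 and 31.9 at 0 h and at 52.2 and 36.1 at 4 h, a change of 0.70 ± 0.30 that did not pass the test (adjusted p = 0.158; 0.00784 with the block). The groups did not overlap in any of the 3. Per length, Hspd1 exceeded Hspe1 in every library, by 1.35-fold at the least (short label, 0 h) and 5.85-fold at the most (RP, 4 h replicate 1).

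Hspa9, the matrix Hsp70 that also drives import, rose in 4sU by 1.73 ± 0.21 and in RP by 1.27 ± 0.26 on the log2 scale. Dnaja3, its J-domain partner, rose in 4sU (1.13 ± 0.18), total RNA (1.01 ± 0.24) and RP (1.04 ± 0.20), after values below its 0 h level at 1 h in 4sU (9.64 and 10.5 against 16.2 and 13.5 FPKM). Trap1, the mitochondrial Hsp90, rose in 4sU (0.84 ± 0.21) while its RP change was 0.02 ± 0.19. The Dnaja3 calls in total RNA and RP were lost in every fit with 1 library left out. Its changes there were 0.82 to 1.20 in total RNA and 1.02 to 1.06 in RP. The Hspa9 call in RP (0.98 to 1.57) and the Trap1 call in 4sU (0.60 to 1.08) were each kept in 1 of the 4 such fits. Grpel1, the exchange factor that releases nucleotide from Hspa9, stood apart from its partners, at 29.7 and 26.3 FPKM at 0 h and 38.6 and 28.1 at 4 h in 4sU, with overlapping groups and a change of 0.23 ± 0.22 (adjusted p = 0.453).

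Among the cytosolic Hsp70 and Hsp110 genes, all 3 rose in 4sU, 1 in total RNA (all 3 with the block) and 2 in RP. Hsph1 (Hsp110, a nucleotide exchange factor that also takes part in dissolving aggregates) was the one called throughout. In 4sU it was at 4.33 and 3.01 FPKM at 0 h, 7.52 and 4.44 at 1 h, 9.53 at 2 h, 13 at 3 h and 14.3 and 11.1 at 4 h. In total RNA it was at 3.53 and 2.25 at 0 h, 3.10 at 1 h, 7.24 at 2 h and 14.4 and 10.6 at 4 h. RP values were 29.1 and 15.4 at 0 h, 33.7 at 0.5 h, 33.0 and 21.2 at 1 h, 55.6 at 2 h and 137 and 91.3 at 4 h. Replicate 1 was above replicate 2 at each time sampled in both, and the 0 and 4 h groups were apart in each kind. Its log2 changes of 1.56 ± 0.29 in 4sU (adjusted p = 0.0107), 1.80 ± 0.27 in total RNA (0.0126) and 2.34 ± 0.39 in RP (0.0119) made it the chaperone gene with the largest change in total RNA and in RP. Without 4 h replicate 1 the adjusted p was 0.0557, 0.104 and 0.0769 in turn, and without 0 h replicate 2 it was 0.0663 in 4sU.

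Hspa8, the constitutive cytosolic Hsp70, was the most abundant of the 3 in 4sU, at 187 and 113 FPKM at 0 h, 294 and 228 at 1 h, 309 at 2 h, 388 at 3 h and 515 and 345 at 4 h. It rose by 1.53 ± 0.38 on the log2 scale (adjusted p = 0.0264), a call lost without 0 h replicate 1 (0.0561), 4 h replicate 1 (0.104) or 0 h replicate 2 (0.181). Its RP values had no stable course: 128 and 45.2 at 0 h, 229 at 0.5 h, 49.1 and 139 at 1 h, 253 at 2 h and 126 and 111 at 4 h. The replicates at 0 h differed by 1.48 and those at 1 h by 1.49 on the log2 scale, in opposite directions, which were the largest replicate differences of any chaperone gene. Its RP change at 4 h was 0.62 ± 0.63 and its sign turned without 0 h replicate 2 (-0.12). Hspa4, a further Hsp110 protein, went from 31.2 and 30.4 FPKM at 0 h to 52.9 and 55.4 at 4 h in 4sU and from 125 and 146 to 250.3 and 240 in RP. It rose in both, by 0.79 ± 0.16 and 0.85 ± 0.21, and the groups did not overlap. The 4sU call was lost without 0 h replicate 1 (adjusted p = 0.0783) or 0 h replicate 2 (0.0982), and the RP call in all 4 fits with 1 library left out (up to 0.138). Hspa4 had already reached 56.0 FPKM in 4sU at 2 h.

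The J-domain proteins, which bring substrates to Hsp70 and start its ATP hydrolysis, had 1 of 5 genes rising in 4sU at 4 h, near the 14.4% of all genes, 0 in total RNA and 2 in RP. The block gave 3 calls higher and 2 lower in 4sU, and 3 higher in RP. In total RNA, 1 had an unadjusted p below 0.05 and 2 were called higher with the block. Dnajc2, which works at the ribosome exit, rose in 4sU from 7.68 and 8.03 to 19.4 and 20.2 FPKM (1.23 ± 0.16, adjusted p = 0.00445) and in RP from 20.9 and 26.6 to 53.0 and 63.6 (1.26 ± 0.20, adjusted p = 0.0109), an RP call lost without 0 h replicate 1 (0.0545), 4 h replicate 1 (0.0518) or 4 h replicate 2 (0.0503). Total RNA of Dnajc2 was at 11.8 and 15.7 at 0 h and at 24 and 23.6 at 4 h, a change of 0.76 ± 0.24 (adjusted p = 0.0762; 0.00328 with the block). Dnaja2, a general partner of Hspa8, rose in RP (0.77 ± 0.19), with adjusted p of up to 0.13 when 1 library was left out. In 4sU its change of 0.61 ± 0.20 had an adjusted p of 0.0564 (0.0154 with the block).

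Dnajb1, the Hsp40 best known as a heat-inducible partner of Hsp70, had a different time course. In 4sU it was at 89.1 and 80.6 FPKM at 0 h, 150 and 108 at 1 h, 92.3 at 2 h, 64.3 at 3 h and 65.7 and 59.1 at 4 h. RP values were 85.1 and 75.3 at 0 h, 85.8 at 0.5 h, 102 and 96.8 at 1 h, 76.4 at 2 h and 75.2 and 63.5 at 4 h, and in total RNA between 17.8 and 31.6 throughout. In both 4sU and RP the 1 h libraries were the highest and the 4 h libraries were under the 0 h libraries. In RP the groups at 0 and 4 h nearly met, at 75.25 (0 h replicate 2) and 75.2 FPKM (4 h replicate 1). The 4sU change was 0.58 at 1 h (adjusted p = 0.356; 0.0587 with the block) and -0.44 ± 0.23 at 4 h (adjusted p = 0.177; 0.0455 with the block). Dnajc7, a partner of Hsp70 and Hsp90, likewise ended lower in 4sU, at 17.9 and 20.9 FPKM against 24.4 and 26.3 at 0 h, a change of -0.37 ± 0.17 (adjusted p = 0.136; 0.0382 with the block).

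**Figure D3:**
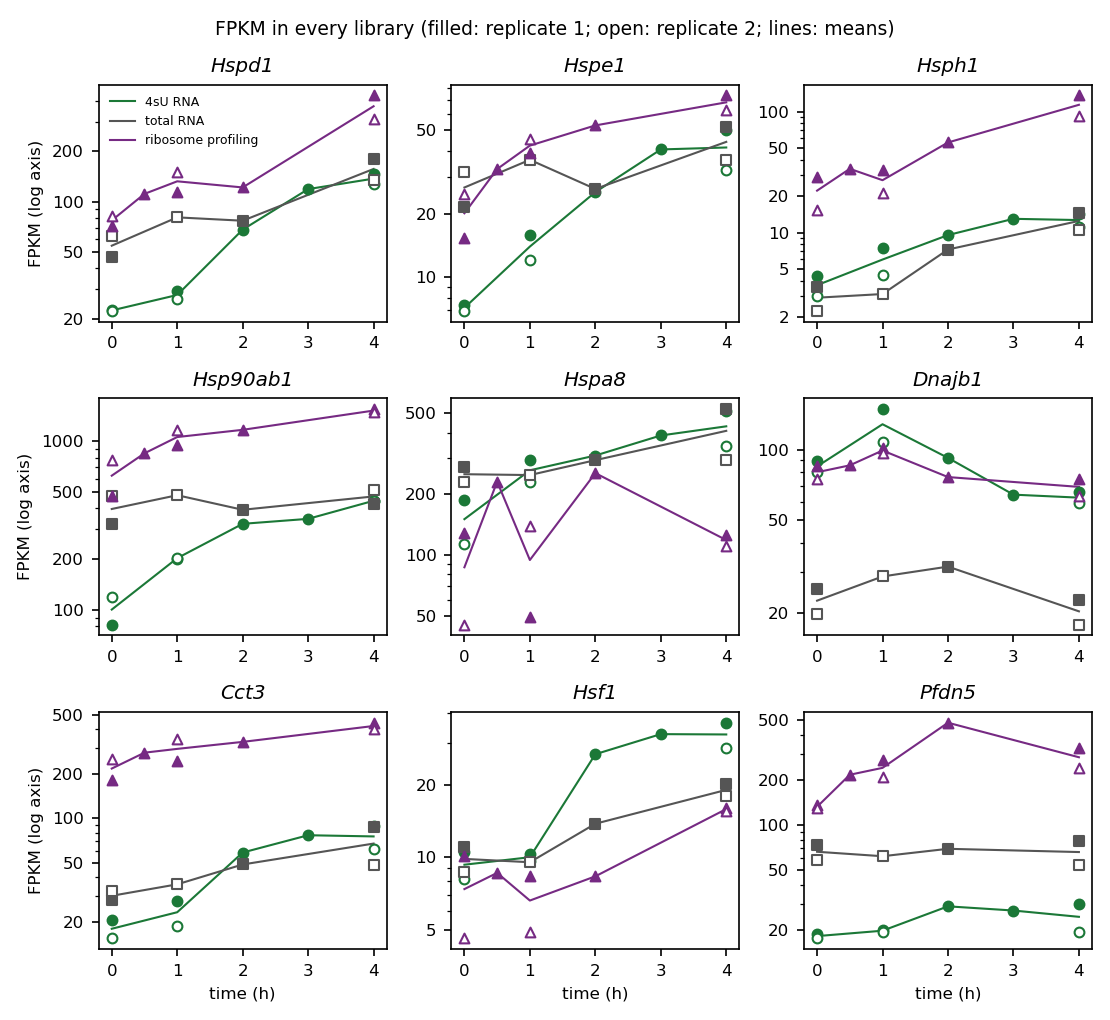
FPKM (log axis) against time after restimulation in hours for 9 chaperone genes in every 4sU, total RNA and ribosome profiling library, with filled points for replicate 1, open points for replicate 2 and lines through the means. Hspd1 in 4sU goes from 22.6 and 22.3 to 147 and 127 FPKM, Dnajb1 is highest at 1 h (150 and 108) and Hspa8 in ribosome profiling ranges from 45.2 to 253 with no steady course.

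Both Hsp90 genes rose in new RNA. Hsp90ab1, the constitutive form, was at 81.8 and 119 FPKM at 0 h, 202 and 204 at 1 h, 324 at 2 h, 347 at 3 h and 443 and 445 at 4 h in 4sU. Its total RNA was at 321 and 473 at 0 h, 479 at 1 h, 393 at 2 h and 426 and 516 at 4 h, with overlapping groups. On ribosomes it was at 473 and 780 at 0 h, 850 at 0.5 h, 954 and 1169 at 1 h, 1171 at 2 h and 1557 and 1491 at 4 h, the highest RP level among the chaperone genes. The change was 2.16 ± 0.29 in 4sU (adjusted p = 0.00445) and 1.33 ± 0.31 in RP (adjusted p = 0.0309), but 0.27 ± 0.30 in total RNA (adjusted p = 0.584). The RP call was lost without 0 h replicate 1 (0.117), 4 h replicate 1 (0.135) or 4 h replicate 2 (0.0923), and the total RNA value was -0.011 without 0 h replicate 1.

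Hsp90aa1, the more inducible form, was at 40.3 and 42.2 FPKM at 0 h, 67.5 and 60.1 at 1 h, 81.3 at 2 h, 91.2 at 3 h and 105 and 117 at 4 h in 4sU, a change of 1.41 ± 0.18 (adjusted p = 0.00424). RP values were 118 and 240 FPKM at 0 h and 438 and 362 at 4 h, a change of 1.23 ± 0.39 (adjusted p = 0.0669; 0.0144 with the block). Total RNA was at 82.5 and 154 at 0 h and 169 and 159 at 4 h (adjusted p = 0.317; 0.0334 with the block), and this gene had the largest replicate difference of the list in total RNA at 0 h, 0.89 on the log2 scale. Per length, Hsp90aa1 was below Hsp90ab1 in every library, at 0.177 to 0.493 of its level.

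Of the 5 Hsp90 cochaperones, 4 rose in 4sU, 0 in total RNA and 3 in RP (4 with the block, Stip1 in addition). In total RNA, 3 had an unadjusted p below 0.05 and 4 were called higher with the block, Ahsa1, Stip1, Fkbp4 and Chordc1. Fkbp4, the immunophilin FKBP52 of steroid receptor complexes, was at 16.1 and 9.22 FPKM at 0 h, 10.0 and 7.88 at 1 h, 21.8 at 2 h, 42.5 at 3 h and 54.8 and 33.6 at 4 h in 4sU, a change of 1.73 ± 0.33 (adjusted p = 0.0124; 0.0565 without 4 h replicate 1 and 0.0635 without 0 h replicate 2). In RP it went from 81.9 and 83.3 to 199 and 143 (1.02 ± 0.22, adjusted p = 0.0251), a call lost without 0 h replicate 1 (0.0942), 4 h replicate 1 (0.113) or 0 h replicate 2 (0.0818). The groups did not overlap in either. Its 1 h values in 4sU were below the 0 h values of the same replicate, and the increase came after 1 h. Ahsa1, which stimulates the ATPase of Hsp90, Stip1, which links Hsp70 to Hsp90, and Cdc37, which brings kinases, rose in 4sU by 1.14 ± 0.27, 1.01 ± 0.20 and 0.92 ± 0.21, and Ahsa1 also in RP (0.95 ± 0.26). Each of these calls was kept in 1 of the 4 fits with 1 library left out. The 4sU changes there were 0.817 to 1.465 (Ahsa1), 0.872 to 1.153 (Stip1) and 0.661 to 1.178 (Cdc37). The Ahsa1 change in RP ran from 0.617 to 1.275.

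Chordc1, a cochaperone with zinc-binding CHORD domains, differed from the other cochaperones in 4sU, at 28.6 and 26.2 FPKM at 0 h and 33.8 and 35.7 at 4 h (0.34 ± 0.15, adjusted p = 0.138). In RP it rose from 91.3 and 75.8 to 166 and 164 FPKM (0.98 ± 0.19, adjusted p = 0.0181), and total RNA was at 29.3 and 26.6 at 0 h and 50.1 and 45.0 at 4 h (0.75 ± 0.23, adjusted p = 0.0718; 0.00340 with the block). At 0.5 h and 1 h its RP values of 65.3, 63.1 and 73.5 lay below both 0 h libraries. The RP call was lost when any of the 4 libraries was left out, with adjusted p of up to 0.0926.

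The Hsp70 cofactors were split. St13 (Hip), which holds the ADP state of Hsp70, rose from 9.55 and 10.5 to 23.6 and 25.6 FPKM in 4sU (1.22 ± 0.16, adjusted p = 0.00424) and from 125 and 154 to 400 and 271 in RP (1.24 ± 0.26, adjusted p = 0.0226). The RP call was lost without 0 h replicate 1 (0.0981), 4 h replicate 1 (0.106) or 0 h replicate 2 (0.0555). Bag1, a nucleotide exchange factor, was at 22.7 and 21.6 at 0 h and 30.9 and 27.8 at 4 h in 4sU (0.39 ± 0.18, adjusted p = 0.145; 0.0407 with the block) and at 84.5 and 71.2 and then 69.5 and 75.4 in RP, with overlapping groups. Bag2, which holds back the ubiquitin ligase Stub1, was the lowest of the genes, at 1.02 to 2.56 FPKM in 4sU at 0 and 4 h. Its 0.13 FPKM in total RNA at 0 h replicate 2 amounts to 1.94 reads, and its groups were not tested there.

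All 7 TRiC subunits rose in new RNA at 4 h, with log2 changes from 1.07 ± 0.21 (Cct4) to 2.00 ± 0.28 (Cct3) and a median of 1.30. In RP 5 of 7 rose (Tcp1, Cct2, Cct3, Cct4 and Cct7; 7 with the block, median 1.06), and in total RNA 0 (3 with the block, median 0.40; 2 at an unadjusted p below 0.05). In FPKM as deposited, Cct3 was the lowest subunit of new RNA at 0 h, at 20.4 and 15.5. It reached 27.6 and 18.8 at 1 h, 58.7 at 2 h, 76.8 at 3 h and 88.5 and 62.2 at 4 h. Its RP values were 182 and 250.3 at 0 h and 441 and 397 at 4 h, a change of 0.97 ± 0.27 (adjusted p = 0.0473) that was not called when any of the 4 libraries was left out (adjusted p up to 0.190). Cct4 went from 38.3 and 36.6 to 94.2 and 67.6 in 4sU and from 139 and 187 to 407 and 335 in RP (1.19 ± 0.24, adjusted p = 0.0210). The RP call was lost without 0 h replicate 1 (0.0929), 4 h replicate 1 (0.113) or 4 h replicate 2 (0.055), and the 4sU call (adjusted p = 0.013) without 0 h replicate 1 (0.0649) or 0 h replicate 2 (0.082). Total RNA of Cct4 at 1 h was 28.8 FPKM, against 67.5 or more in the other total RNA libraries, and in that library Cct8 was also low, at 41.5 against 70.1 or more elsewhere.

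The subunits of TRiC are assembled in equal numbers, and their levels were closer to each other in RP than in RNA. Within an RP library, the highest of the 7 subunits was 1.32 to 1.98 times the lowest and the coefficient of variation (SD over mean) was 9.41% to 23.6%. Within 4sU libraries these were 2.23 to 4.33 and 31.7% to 42.8%, and within total RNA libraries 2.83 to 7.12 and 33.8% to 68.2%, so the ranges did not overlap with RP. The steps between low values fitted the coding length for RP and the summed exon length for 3 of the other libraries. Rescaled to coding length, an alternative added after seeing the data, the coefficient was 45.2% to 57.6% in 4sU and 37.2% to 60.3% in total RNA. On that scale Cct8, not Cct3, was the lowest subunit in 4sU at 0 h (54.2 and 51.6). Cct4 was the lowest subunit in all 8 RP libraries, and the 4 h RP library of each replicate was more even than its 0 h library, at 9.41% against 19.7% and 15.9% against 23.6%. These are descriptions over 7 genes, with no test.

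Prefoldin, which is built from 6 different subunits and delivers actin and tubulin to TRiC, had 5 members in the table. Of these, 2 rose in 4sU (Pfdn2 and Pfdn4), the same 2 in total RNA and 3 in RP (Pfdn2, Pfdn4 and Pfdn5). Pfdn2 was at 3.43 and 3.84 FPKM at 0 h and 8.75 and 8.22 at 4 h in 4sU (1.03 ± 0.17, adjusted p = 0.00775), at 3.95 and 3.59 and then 13 and 8.82 in total RNA (1.30 ± 0.25, adjusted p = 0.0218) and at 115 and 96.0 and then 320 and 214 in RP (1.31 ± 0.28, adjusted p = 0.0240). Its groups did not overlap in any kind. Without 0 h replicate 1 the adjusted p was 0.0567 in 4sU, and with 1 library left out it was up to 0.158 in total RNA and 0.115 in RP, where only the fits without 4 h replicate 2 kept the call. Pfdn4 rose by 0.52 ± 0.16 in 4sU, a call lost in every fit with 1 library left out (adjusted p up to 0.198), by 1.18 ± 0.29 in total RNA and by 1.43 ± 0.30 in RP.

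Pfdn5 had 18.8 and 17.6 FPKM at 0 h and 29.6 and 19.3 at 4 h in 4sU with a difference of -0.02 ± 0.28 in total RNA, while its RP values were 136 and 129 at 0 h, 217 at 0.5 h, 273 and 209 at 1 h, 482 at 2 h and 326 and 241 at 4 h. It rose in RP at 2 h (1.86, adjusted p = 0.0347) and at 4 h (1.08 ± 0.24, adjusted p = 0.0276). The 4 h call held with 4 h replicate 2 left out and was lost in the other 3 fits (adjusted p up to 0.134). Pfdn6 was at 19.2 and 20.8 FPKM at 0 h and 25.9 and 15.0 at 4 h in 4sU, where the replicates differed from 0 h in opposite directions. Its RP values were 140 and 192 at 0 h and 99.7 and 142 at 4 h, each replicate lower than before (-0.46 ± 0.26, adjusted p = 0.238; 0.0569 with the block).

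At 0 h the 5 prefoldin genes lay closer together in RP than in total RNA. In RP replicate 1 they ran from 115 FPKM (Pfdn2) to 147 (Pfdn1), a coefficient of variation of 9.35%, and in replicate 2 from 96.0 to 216, 33.2%. In total RNA Pfdn5 was 18.8 and 16.4 times Pfdn2, and the coefficient was 102% and 85.3%. Adding Vbp1, the remaining subunit, gave 9.64% and 32.5% in RP and 89.1% and 73.0% in total RNA. At 4 h the RP levels of the 5 members had a coefficient of 45.7% in replicate 1, with Pfdn6 at 99.7 and Pfdn4 at 442 FPKM, and of 22.3% in replicate 2. Over all libraries the coefficient was 9.35% to 55.8% in RP, 31% to 57.6% in 4sU and 71.3% to 102% in total RNA. The ranges of RP and 4sU thus overlapped, unlike those of TRiC. Rescaled to coding length it was 30% to 45% in 4sU and 55.9% to 91.7% in total RNA.

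**Figure D4:**
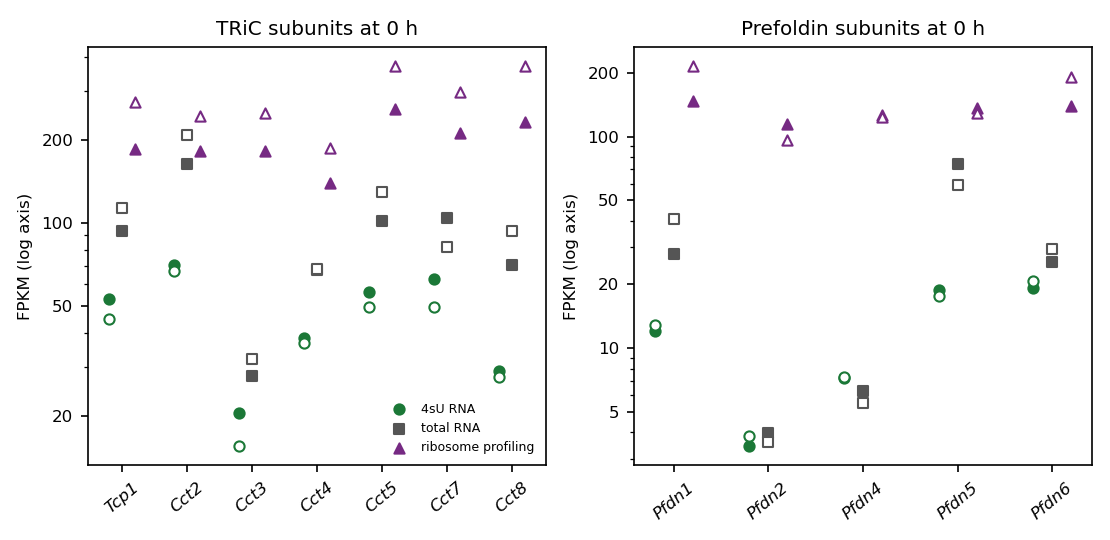
FPKM (log axis) of the 7 TRiC subunits and 5 prefoldin subunits at 0 h in 4sU RNA (circles), total RNA (squares) and ribosome profiling (triangles), with filled symbols for replicate 1 and open symbols for replicate 2. The ribosome profiling points of TRiC lie between 139 and 371 FPKM, while total RNA runs from 27.9 (Cct3) to 208 (Cct2), and Pfdn2 and Pfdn4 are the lowest prefoldin subunits in RNA.

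Hsf1, the transcription factor that drives the heat shock response, rose in new and total RNA. In 4sU it was at 10.5 and 8.12 FPKM at 0 h, 10.4 and 9.69 at 1 h, 26.9 at 2 h, 32.7 at 3 h and 36.5 and 28.7 at 4 h, a change of 1.70 ± 0.20 (adjusted p = 0.00368) that was called in every fit with 1 library left out. In total RNA it was at 11.0 and 8.70 at 0 h, 9.55 at 1 h, 13.8 at 2 h and 20.3 and 18.0 at 4 h (0.90 ± 0.23, adjusted p = 0.0482; up to 0.258 with 1 library left out). In RP it was at 10.2 and 4.60 at 0 h and 16.2 and 15.7 at 4 h (1.10 ± 0.39, adjusted p = 0.0868; 0.00993 with the block). The 0 and 1 h values in 4sU overlapped, and all later libraries lay above them.

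Because heat shock factors bind alternating TTC and GAA units, RefSeq promoter windows (GRCm38.p6, 250 bases before to 50 after each start) were searched on both strands for 3 units, TTCNNGAANNTTC or GAANNTTCNNGAA. A window was found for 28 of the 37 genes. The motif was in 4 of the 28 (14.3%), Hspd1 and Hspe1 (which share it), Hsph1 and Chordc1, and in 0.662% of 27025 genes with a window. A pair of adjacent units, TTCNNGAA or GAANNTTC, which every 3-unit match contains, were in 28.6% of the 28 genes and 17.0% of all, and the E-box CACGTG in 7.14% and 8.09%. Among the 7562 genes of the expression table with a window, the shares were 0.529% for 3 units, 14% for a pair and 12.4% for the E-box. The runs in the other 2 genes are shown to set them beside that of Hspd1 and Hspe1, with the alternating units in capitals, for Hsph1 on the minus strand of chromosome 5 (chr5:149636280-149636308) and Chordc1 on the plus strand of chromosome 9 (chr9:18292260-18292288).

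Hsph1: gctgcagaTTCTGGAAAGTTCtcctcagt
Chordc1: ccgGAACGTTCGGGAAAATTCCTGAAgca

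A match is a run of letters in a window, not a shown binding site. Of these genes, Hspd1, Hspe1 and Hsph1 rose in 4sU at 4 h and Chordc1 did not pass the test. Dnajb1 has a window without a 3-unit match, as has Cct3, whose 4sU change of 2.00 at 4 h was the largest of TRiC. No window was found for Hspa8, Hsp90aa1 or Hsp90ab1.

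Changes in new RNA and in RP were compared with the total RNA change in 1 model for each pair. For 4sU minus total RNA, no chaperone gene passed the test in limma (nor did any gene, background 0%), and 10 had an unadjusted p below 0.05, which 5.82% of all genes had. The median difference was 0.50 log2 units against -0.08 over all genes. The differences at that p were largest for Hsp90ab1 (1.89 ± 0.42, adjusted p = 0.416), Hspe1 (1.65 ± 0.41, adjusted p = 0.457) and Fkbp4 (1.11 ± 0.47, adjusted p = 0.845). These 3 were called with the replicate block (adjusted p = 0.0127, 0.0272 and 0.0483; background 1.69%). The others at that p were Hspd1 (1.05), Cct2 (1.00), Cct5 (0.95), Cct8 (0.92), Cdc37 (0.81), Hsf1 (0.81) and St13 (0.74).

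For RP minus total RNA, limma called 0 chaperone genes with or without the block (background 0% and 0.0222% higher), and 4 had an unadjusted p below 0.05, which 2.67% of all genes had. They were Pfdn5 (1.10 ± 0.38), Hsp90ab1 (1.06 ± 0.46), Hspe1 (1.04 ± 0.42) and Cct2 (0.93 ± 0.35), all at an adjusted p of 1. The median difference was 0.28, against 0.00 over all genes. The intervals behind these values are wide: the standard errors ran from 0.26 to 0.82, the latter for Hspa8.

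In resting cells, new RNA of the chaperone genes was low relative to total RNA. The 4sU minus total RNA difference of mean log2(FPKM + 1) at 0 h had a median of -0.72 over 36 genes, against 0.52 over the 8978 genes with at least 1 FPKM in each kind. Only 3 of the 36, Dnajb1, Dnaja3 and Grpel1, were above the median of all genes. Hsp90ab1 (-1.97), Pfdn5 (-1.80), Hspe1 (-1.74), Cct8 (-1.49) and Hsp90aa1 (-1.43) ranked at percentiles 0.841 to 2.21 of all genes, while Dnajb1 (1.87) ranked at percentile 99.1. The scales of the kinds are separate, so only the standing among genes can be read.

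The same difference for RP minus total RNA had a median of 1.49, close to the 1.29 over all genes, with 22 of 36 above. Pfdn2 (4.48), Pfdn4 (4.20) and Grpel1 (3.04) stood highest, at percentiles 99.3, 98.9 and 94.2. Hspa8 (-1.69), Hsf1 (-0.45) and Hspe1 (-0.40) stood lowest, at percentiles 0.663, 4.44 and 4.92. These values also carry the gene lengths used, coding length for RP and, where it could be read, summed exon length for RNA.

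In the libraries labelled for 0.5 h, 34 of the 37 genes had at least 5 FPKM in either library. None differed by 1 or more on the log2 scale between 0 and 0.5 h, where 0.825% of 7392 genes were higher and 0.284% lower by that much. The median difference was 0.16 against -0.04 over all genes, and 24 of the 34 were positive. Hsp90aa1 went from 25.4 to 38.8 FPKM, Hspa8 from 87.6 to 129 and Dnajb1 from 48.8 to 64.1, while Dnaja3 went from 8.81 to 4.85. With 1 library each, there is no test.

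Other chaperone genes were counted in the same way. A list of 95 further genes had 79 in the table. In 4sU at 4 h 17 of 78 tested rose and 4 fell (background 14.4% and 18.9%), with a median log2 change of -0.02. In total RNA 7 of 78 rose and 1 fell (6.47% and 7.02%), and in RP 12 of 79 rose and 2 fell (12.1% and 12.9%), increases near the background in both. With the block the counts were 26 and 14 in 4sU (23.3% and 35.4%), 13 and 10 in total RNA (16.6% and 23.3%) and 19 and 10 in RP (21.3% and 26.7%). Ruvbl2, an ATPase of the R2TP assembly complex that works with Hsp90 and prefoldin-like proteins, had the largest increase in 4sU (1.74 ± 0.25), and Hspb6, a small heat shock protein, the largest decrease (-1.70 ± 0.22, from 6.21 to 1.21 FPKM). Grpel2, the paralog of Grpel1, rose most in RP (1.68 ± 0.20, from 9.18 to 31.7 FPKM). Of the 5 tubulin cofactors, Tbca rose in 4sU and none was called in RP, where 3 reached an unadjusted p under 0.05. The block turned this into 1 call higher (Tbca) and 3 lower. Of 24 other J-domain genes, 2 rose and 2 fell in 4sU, both below the background shares, and the block gave 7 calls higher and 5 lower.

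Some values rest on reads that may be shared between genes. Of the 37 genes, 5 have pseudogenes named after them in the annotation (5 for Hspd1, 6 for Hspe1 and 1 each for Hspa9, Tcp1 and Cct3), and 8 overlap a gene of the table on the other strand. Pseudogenes listed under other names were not searched for, so the remaining genes may have copies too. Pfdn5 overlaps Myg1 on the same strand, so that a strand setting would not separate their shared reads. No strand setting of the counting is named in the sources used here. The gene models of Hspd1 and Hspe1 share 112 bases on opposite strands.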

How the data were processed

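FPKM values with 2 decimals for 9420 genes in 24 libraries were used as the authors deposited them. Counting used featureCounts from Subread 1.4.6-p3, with GRCm38 as the build, per the submitters' processing notes. No aligner, annotation, strand setting or gene filter is named in the sources used here, but every gene reached at least 0.97 FPKM in a 4sU, 0.97 in a total RNA and 0.99 in an RP library. No column lacked a sample (0 other columns).

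Changes were tested with limma 3.58.1 (R 4.3.3) on log2(FPKM + 1), which understates changes of low genes, with a prior variance that follows mean expression. Each kind of library was fitted with all its times, on genes with a mean of at least 1 FPKM (4sU 9278, total RNA 9078, RP 9312), and Benjamini-Hochberg adjustment ran over all of them. A gene passed at an adjusted p below 0.05. Residual degrees of freedom were 3, 2 and 3, and 5 for differences between kinds. With the replicate block they were 2, 1 and 2, and 4 for differences between kinds. Blocked calls and p-values in total RNA thus rest on 1 residual degree of freedom. Times with 1 library were assumed to vary like the replicated groups. The fits were run on simulated data, drawn with independent noise in each library. That check did not cover libraries of the same replicate number deviating together.

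The fit had no replicate term. Replicate numbers were checked for pairing: deviations of the same number correlated in 28 of 28 pairs of groups (0.308 to 0.792, across 8978 genes), so blocked values are given where the block changes a call or moves a count by over 1.5 times.

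Depth is unknown for 13 libraries, and was read elsewhere from values of up to 8 reads within 0.1 read, with at least 82.1% of them whole. The members and lists were chosen with earlier results of these data known, so counts over them are descriptions. Genes shown library by library are, in each role, those with the largest and smallest 4sU change at 4 h, plus Hspd1, Hspe1, Hspa8, Hsp90aa1, Hsp90ab1 and Hsf1. Others whose values are given were chosen after these were seen. Alternatives were a pseudocount of 0.1, no filter, median-of-ratios scaling, the block and leaving out each library.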

Additional observations from a re-analysis of the deposited data

How the results depend on the processing

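A pseudocount of 0.1 or no filter on low values moved no count of called chaperone genes by more than 1.5 times. Median-of-ratios scaling shifted the median change of all genes in 4sU at 4 h from -0.16 to -0.01 and gave 27 calls there, 9 in total RNA and 21 in RP. The fit with the replicate block gave 5, 18, 26 and 31 calls in 4sU at 1, 2, 3 and 4 h, 4, 1 and 20 in total RNA at 1, 2 and 4 h, 0, 0, 5 and 27 in RP at 0.5, 1, 2 and 4 h, 3 for 4sU minus total RNA and 0 for RP minus total RNA. It ended no call of the fit without it. The cause of the higher counts was not tested. Leaving out 1 library gave 0 in 4sU at 2 h, 0 to 1 at 3 h and 11 to 28 at 4 h, 0 to 4 in total RNA at 4 h, 0 in RP at 2 h and 1 to 10 at 4 h. Each comparison then rested on fewer libraries, and all 26, 6 and 21 genes called at 4 h in 4sU, total RNA and RP kept an increase in every such fit.

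Signs turned only for values that had not passed the test. With median-of-ratios scaling, Pfdn6 in 4sU was 0.14 and Bag1 in total RNA 0.067. With 1 library left out, Pfdn6 in 4sU ran from -0.39 to 0.36 (0.04 without 0 h replicate 2, 0.36 without 4 h replicate 2). In total RNA, Bag1 ran from -0.18 to 0.079 (positive without 0 h replicate 2 or 4 h replicate 2), Dnajb1 from -0.32 to 0.024 (positive without 0 h replicate 1 or 4 h replicate 2) and Hsp90ab1 from -0.011 (without 0 h replicate 1) to 0.55. In RP, Bag1 ran from -0.22 to 0.023 (without 0 h replicate 1) and Hspa8 from -0.12 (without 0 h replicate 2) to 1.36. Leaving out the only library of a time (4sU at 2 and 3 h, total RNA at 1 and 2 h, RP at 0.5 and 2 h) could not be fitted. The pairing, and with it the block, rests on these data and not on the labels. Depth limits Bag2 most.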
